A study of Mus musculus with 4 samples.

Results

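The neighbouring genes Peg3, Zim1 and Usp29 were followed in AdmMABs, mesoangioblasts of adult mice. Mesoangioblasts are progenitor cells found with small vessels, and they can give rise to muscle. They were taken as the probe sets whose annotation gave exactly 1 gene symbol equal to one of the 3 names, and each gene had 1 such probe set, so 3 of 21789 probe sets tested (3 of 19938 genes) are described. Both groups were one polyclonal population of adult male C57/BL6 cells from the tibialis anterior, kept proliferating in serum. Cells labelled shPW1 carried a lentiviral short hairpin RNA against PW1, the protein product of Peg3, and cells labelled shCtrl carried a lentiviral scrambled hairpin. RNA was extracted 2 times from each population and each extract was put on 1 Affymetrix Mouse Gene 1.0 ST array (n = 2 shPW1 and n = 2 shCtrl arrays). The replicates are therefore extractions, and p-values measure only the spread between them, which may be technical. Only 1 hairpin against PW1 was used and untransduced cells were not analysed here. The methods describe a pLV-H1 plasmid for that hairpin and a purchased pLKO.1 control, without saying which plasmid the arrayed control cells carried. If it was pLKO.1, plasmid and hairpin cannot be told apart.

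Peg3 gives its name to an imprinted domain at the proximal end of mouse chromosome 7. In this domain Peg3 and Usp29 are expressed from the paternal chromosome and Zim1 from the maternal one, and DNA methylation of the region where Peg3 and Usp29 begin, laid down in the oocyte, silences both on the maternal copy. PW1 is a large Krüppel-type zinc-finger protein with a SCAN domain that binds DNA and takes part in cell stress pathways, and in skeletal muscle it marks satellite cells and a group of interstitial progenitors. Zim1 encodes another Krüppel-type zinc-finger protein, and Usp29 a ubiquitin-specific protease, an enzyme that removes ubiquitin from other proteins. The arrays do not separate the parental alleles.

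The start regions of the genes are shown because the comparison below sets a pair of genes that begin side by side against one that begins farther away. Each is 250 bases before the start site and 50 bases from it on, from RefSeq on GRCm38.p6, chr7:6730370-6730669 on the minus strand for Peg3 and chr7:6696383-6696682 on the minus strand for Zim1. Capitals mark 2 short motifs on either strand, CCAAT, a common promoter element, and TGACG, the half-site of cyclic AMP response elements.
Peg3: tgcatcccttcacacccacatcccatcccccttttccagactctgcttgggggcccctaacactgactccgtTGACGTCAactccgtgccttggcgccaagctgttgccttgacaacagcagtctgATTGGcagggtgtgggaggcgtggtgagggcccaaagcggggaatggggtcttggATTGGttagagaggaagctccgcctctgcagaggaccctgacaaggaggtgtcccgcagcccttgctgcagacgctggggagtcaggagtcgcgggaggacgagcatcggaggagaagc
Zim1: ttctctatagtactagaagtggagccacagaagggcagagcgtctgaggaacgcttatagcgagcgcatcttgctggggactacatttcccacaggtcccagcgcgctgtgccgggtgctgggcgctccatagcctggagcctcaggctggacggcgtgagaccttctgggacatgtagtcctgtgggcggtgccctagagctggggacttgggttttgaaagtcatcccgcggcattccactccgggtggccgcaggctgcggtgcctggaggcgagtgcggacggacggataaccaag
Usp29 lies on the plus strand with its window at chr7:6730333-6730632, so 263 of its 300 bases are those of the Peg3 window read on the opposite strand. The start sites of Peg3 and Usp29 were 164 bases apart, head to head, and those of Peg3 and Zim1 33987 bases apart on the same strand. The Peg3 window held CCAAT 2 times on the strand opposite to the one printed (ATTGG as printed), 124 and 69 bases before the start. It held TGACG 2 times, 178 and 175 bases before the start, on opposite strands and overlapping each other. These sites lie in the shared stretch, so the Usp29 window held them too, CCAAT 99 and 44 bases before its start and TGACG at bases 8 and 11 of the transcript. The Zim1 window had neither motif. On either strand, CCAAT was in 37.4% and TGACG in 20.8% of the 32851 RefSeq promoter windows. GCCAT, the core of sites for the factor YY1, was in none of the 3 windows and in 40.5% of all. These are matches of letters only, and sites outside the windows were not searched.

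Peg3 was lower in shPW1 AdmMABs, which checks the labels of the arrays. Its log2 expression, as normalized by the authors, was 6.22 and 6.47 in the shPW1 arrays, against 8.67 and 8.70 in the shCtrl arrays. Both shPW1 arrays lay below both shCtrl arrays, with 2.20 log2 units between the nearest of them. The group means were 6.35 ± 0.18 in shPW1 and 8.69 ± 0.02 in shCtrl (SD, n = 2 each). The log2 change was -2.34 (standard error 0.10, 95% confidence interval from -2.60 to -2.08, adjusted p = 0.00428 from limma), which leaves 19.8% of the shCtrl value (interval 16.5% to 23.7%) on this scale. Normalized array values can understate a ratio, so the share of transcript left may differ from this. In a bulk sample, fewer cells that express Peg3 and less Peg3 RNA in each cell cannot be told apart.

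Zim1, whose start lies nearest to Peg3 on its other side, was lower in signal as well. Its log2 expression was 4.33 and 4.29 in the shPW1 arrays, against 5.03 and 5.20 for shCtrl. The 2 groups did not overlap, and the gap of 0.70 between their nearest arrays exceeded the SD within either group. Means were 4.31 ± 0.03 in shPW1 and 5.12 ± 0.11 in shCtrl (SD, n = 2 each). The log2 change in signal was -0.80 (standard error 0.08, 95% confidence interval from -1.01 to -0.60, adjusted p = 0.0132 from limma). Both shPW1 values lay within the range of odorant and vomeronasal receptor genes, taken as silent in these cells. The size of the transcript's fall was thus not measured. With the 95th percentile of the receptors as the floor, the fall would be at least 1.17-fold (4.89 in shPW1, against 5.12 in shCtrl). This figure rests on that choice of floor and carries no error. Of 1200 receptor probe sets, 44 and 29 lay at or above Zim1 in the shCtrl arrays themselves. The fall of Zim1 cannot be ranked against that of Peg3. For comparison, 4.17% of all probe sets tested were called lower in shPW1 at an adjusted p under 0.05, 4.93% were called higher, in 28% both shPW1 arrays lay below both shCtrl arrays, and in 55.5% the groups did not overlap in either direction.

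Usp29, which begins beside Peg3 in the opposite direction, was at 4.46 and 4.24 on the log2 scale in shPW1, against 4.25 and 4.43 in shCtrl. The arrays of the groups overlapped, with means of 4.35 ± 0.16 in shPW1 and 4.34 ± 0.13 in shCtrl (SD, n = 2 each). Its log2 change was 0.01 with a standard error of 0.11, and limma did not call it (adjusted p = 0.956). The 95% confidence interval of the change in signal ran from -0.27 to 0.30. Usp29 lay within the receptor range on all 4 arrays, shCtrl included, so a fall of its transcript may have gone unseen. The interval bounds the signal only.

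**Figure D1:**
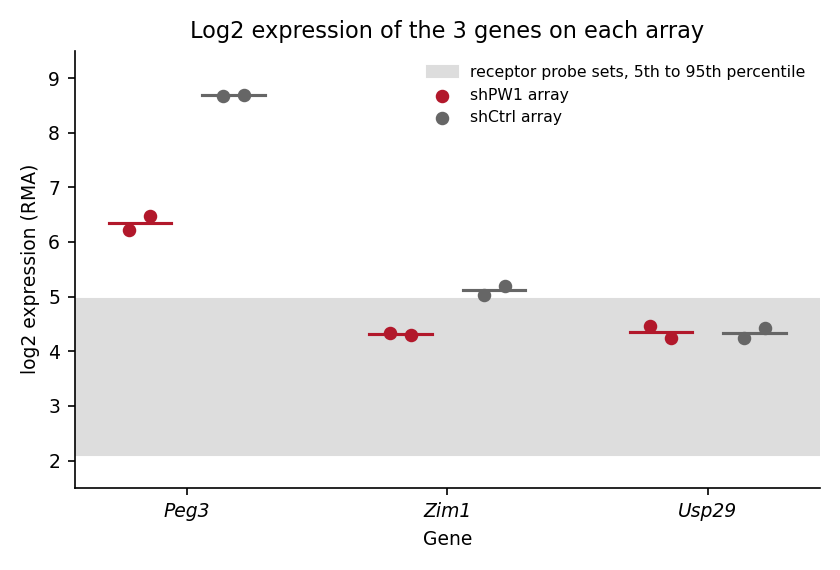
Log2 expression (vertical axis) of Peg3, Zim1 and Usp29 (horizontal axis), with 1 point for each of 2 shPW1 arrays (red) and 2 shCtrl arrays (grey), short lines for group means and a grey band from the 5th to the 95th percentile of odorant and vomeronasal receptor probe sets. Peg3 lies above the band on all 4 arrays, Zim1 lies above it on the shCtrl arrays and within it on the shPW1 arrays, and Usp29 lies within it on all 4.

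Whether the genes were measured above background was read from receptor genes that are not expected in these cells, since no detection call came with the values. Over 1200 probe sets of 1022 odorant and 163 vomeronasal receptor genes, the median log2 expression was 3.12 on each shPW1 array and on each shCtrl array, and the 95th percentile was 4.87 and 4.90 in shPW1 and 4.90 and 4.95 in shCtrl. Probe sets differ in how well they bind, so a position among others places a gene on the array and does not rank transcripts by abundance. Peg3 had 4 and 2 of the 1200 receptor probe sets at or above it in the shPW1 arrays and 0 in either shCtrl array. Of all probe sets tested, 52.1% and 54.5% lay below Peg3 in shPW1 and 80.3% and 80.9% in shCtrl. In shPW1 the Peg3 signal thus stayed above the receptor range. Zim1 had 155 and 150 receptor probe sets at or above it in shPW1, and 44 and 29 in shCtrl. It was above the 95th percentile of the receptors on both shCtrl arrays and below it on both shPW1 arrays, so its values in shPW1 lay within the range of genes taken as silent. Usp29 had 127 and 160 receptor probe sets at or above it in shPW1, and 171 and 146 in shCtrl. Its signal was below the 95th percentile on all 4 arrays, and these values do not show that Usp29 was expressed in either population.

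The receptor probe sets also show how far dim signals moved. Their log2 changes had a median of -0.01 and ran from -0.61 to 0.62, so that of Zim1 lay outside and that of Usp29 inside their range. Of these 1200 probe sets, 8 were called higher and 3 lower (0.917%), against 9.1% of all probe sets called in either direction.

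**Figure D2:**
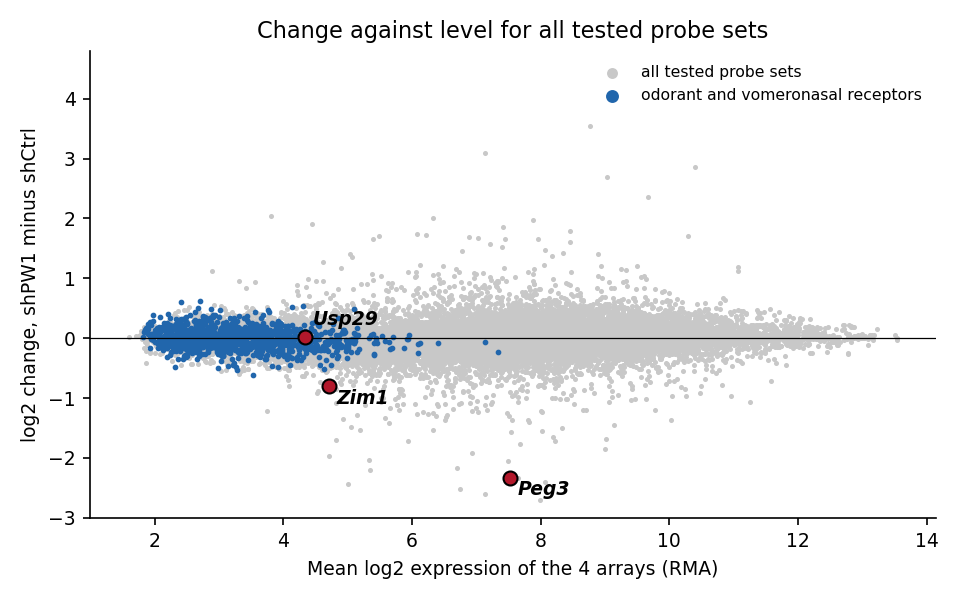
Log2 change of shPW1 over shCtrl (vertical axis) against the mean log2 expression of the 4 arrays (horizontal axis) for every probe set tested (grey), receptor probe sets (blue) and the 3 genes (red). Peg3 lies at -2.34 among probe sets of middle level, Zim1 at -0.80 just below the receptor cloud and Usp29 at 0.01 inside it.

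The changes in signal of the 3 genes were also set against each other. Only Peg3 was above the receptor range on all 4 arrays, so these differences compare signals limited by the floor for Zim1 in shPW1 and for Usp29 throughout, and they do not show that the transcripts responded differently. The log2 change in signal of Zim1 exceeded that of Peg3 by 1.54 (standard error 0.17), and that of Usp29 exceeded that of Peg3 by 2.35 (standard error 0.17). Limma fitted to the differences gave every probe set the same pooled error, so these errors are not those of single genes. By limma fitted to the differences, 100% of all other probe sets differed from Peg3 (21778 of 21788). The signal of Zim1 changed by -0.82 relative to that of Usp29 (95% confidence interval from -1.17 to -0.46, adjusted p = 0.000449 in that fit, where 3.07% of all probe sets differed from Usp29). A t test was also made from limma's moderated errors of the 2 genes alone, taken as independent within an array. Adjusted over the 3 differences, its p was 1.25e-06 for Zim1 against Peg3, 1.31e-07 for Usp29 against Peg3 and 0.00022 for Zim1 against Usp29. It adds the degrees of freedom of 2 genes read on the same 4 arrays, and so does not rest on the spread of the differences themselves. Analysis of variance on the within-array differences rests on that spread. Its unadjusted p was 0.011, 0.0113 and 0.01265 in the same order. As nearly all probe sets differed from Peg3, such a difference is not particular to Zim1 or Usp29.

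Of the 10 nearest measured genes on each side of Peg3 in RefSeq order, limma called Zim1 lower and no other (5% of 20, against 9.1% of all probe sets called in either direction). At that share a count of 0 among the other 18 (1 at an unadjusted p under 0.05) is no result about them. These 18 genes, with Zim1 and Usp29 left out, had log2 changes from -0.10 to 0.27 with a median of 0.03, against -0.01 for all probe sets tested, and their adjusted p lay between 0.13 and 0.983. On the Zim1 side the next 7 genes were odorant receptors, followed by the zinc-finger genes Zfp28 (log2 change -0.02) and Zfp78 (0.11). On the Usp29 side came Aurkc, which encodes Aurora kinase C, a kinase of meiotic cells (log2 change 0.06, interval from -0.47 to 0.59), Zfp954, a zinc-finger gene (0.00, interval from -0.18 to 0.18), and farther on Clcn4, a chloride and proton exchanger (-0.03, interval from -0.17 to 0.12). In all, 7 of these 18 were above the 95th percentile of the receptors on all 4 arrays, among them Zfp954, Clcn4 and the odorant receptor Olfr1347. Olfr1347 belongs to the receptors taken as silent, so a place above that percentile does not by itself show expression. Within the domain, Zim2, Zim3, Zfp264 and Peg3os, which lies antisense to Peg3, were not analysed here, because no probe set carried their symbol alone.

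**Figure D3:**
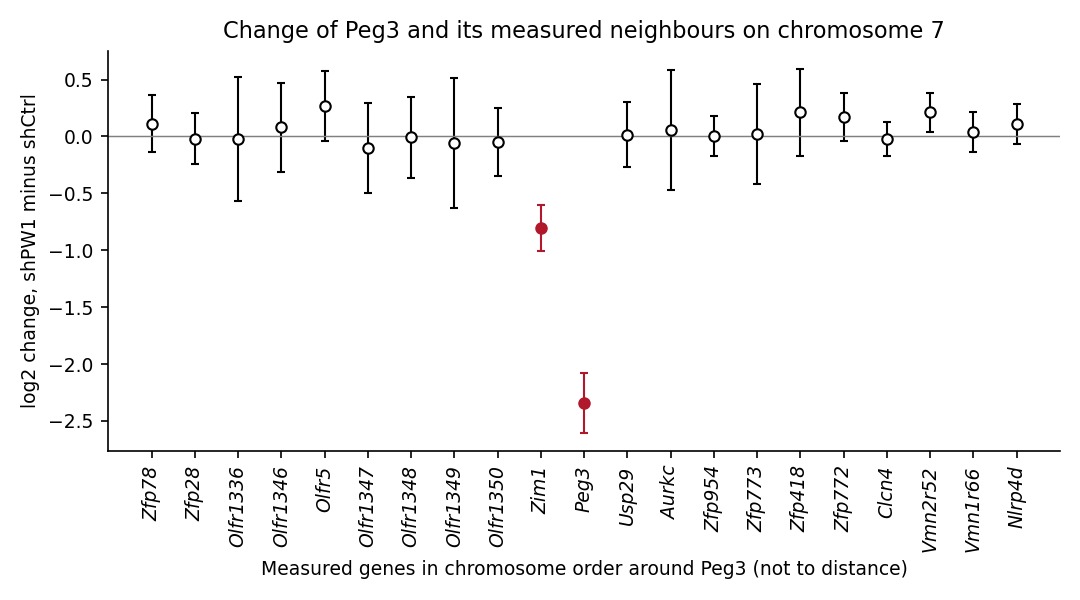
Log2 change of shPW1 over shCtrl with its 95% confidence interval (vertical axis) for Peg3 and the 10 nearest measured genes on each side of it in chromosome order (horizontal axis, not to distance). Filled red points were called lower, Peg3 at -2.34 and Zim1 at -0.80, and the open points, which were not called, lie between -0.10 and 0.27.

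Genes related to the 3 by protein family or by known contacts were read on the same arrays. PW1 is known to bind the ubiquitin ligases Siah1a and Siah1b and the adaptor Traf2 of the tumour necrosis factor receptors, to act with Bax and p53 in cell death and to promote breakdown of beta-catenin (Ctnnb1). Of 4 measured partners 1 was called, too few to set against the 9.1% of all probe sets called. Siah1b had log2 values of 7.63 and 7.73 in shPW1, against 7.28 and 7.31 in shCtrl (log2 change 0.39, adjusted p = 0.0351 from limma). Siah1a (log2 change -0.09), Traf2 (0.22) and Ctnnb1 (-0.05) did not pass the test, and Bax and Trp53 were not analysed here for the same reason as Zim2. Siah1a and Siah1b are near-identical paralogs whose probes may share signal.

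Of 27 measured genes of the SCAN family of zinc-finger proteins, to which PW1 belongs, 1 was called higher and 0 lower (3.7%, against 9.1% of all probe sets), and the median log2 change was -0.02. The called member was Zkscan6, at 6.54 and 6.65 in shPW1 against 6.25 and 6.18 in shCtrl (log2 change 0.38, adjusted p = 0.0417 from limma). Of 48 measured ubiquitin-specific proteases other than Usp29, 4 were higher and 2 lower (12.5%, against 9.1% of all probe sets), with a median of 0.03. That count is near the share of all probe sets and is no result about the family. Usp31 (log2 change 0.60), Usp43 (0.50), Usp36, which acts in the nucleolus (0.39), and Usp16, which removes ubiquitin from histone H2A (0.37), rose. Usp11 (-0.65) and Usp5, which takes apart free ubiquitin chains (-0.33), fell. Usp37, a close relative of Usp29, had a log2 change of 0.27 and an adjusted p = 0.0714 from limma. Usp26, the other close relative, had one of -0.23 at a log2 expression of 3.08 in shPW1 and 3.31 in shCtrl, within the receptor range.

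Imprints are kept by Zfp57, Zfp445 and Trim28, which protect methylated copies, by Dnmt1 and Uhrf1, which copy methylation at replication, and by further methyltransferases, Tet enzymes and DNA-binding factors. Of 14 measured genes of this kind limma called 0 (3 at an unadjusted p under 0.05), a count near the 9.1% of all probe sets called, while 12 were above the 95th percentile of the receptors on all 4 arrays. The median log2 change was 0.08. Dnmt1 had a log2 change of 0.02, Uhrf1 of 0.12, Trim28 of 0.07 and Yy1, whose protein binds the Peg3 region, of 0.21 (adjusted p = 0.0956 from limma). Tet3 had the largest, 0.47 (adjusted p = 0.0663), and was called with array medians subtracted (log2 change 0.52, adjusted p = 0.033).

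**Figure D4:**
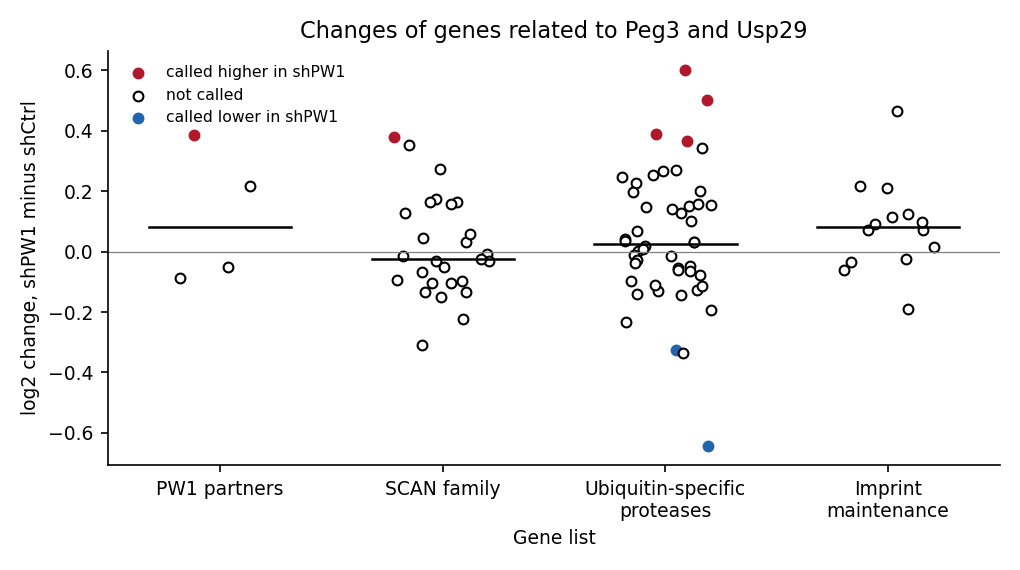
Log2 change of shPW1 over shCtrl (vertical axis) for each measured gene of 4 lists related to Peg3 and Usp29 (horizontal axis). Points are genes, red where called higher, blue where called lower and open where not called, and lines are list medians, from -0.02 for the SCAN family to 0.08 for PW1 partners and imprint maintenance.

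The genes whose 4 values, each minus the shCtrl mean, lay nearest to those of Peg3 were Igfbp5 (Euclidean distance 0.13 log2 units over the 4 arrays), Aspn (0.15), Igfbp2 (0.20), Hpgd (0.29) and Spon2 (0.32). Igfbp5 and Igfbp2 encode binding proteins of insulin-like growth factors, Aspn a matrix proteoglycan, Hpgd a prostaglandin-degrading enzyme and Spon2 a matrix protein. Igfbp5 lay at 6.24 and 6.58 in shPW1, against 8.77 and 8.65 in shCtrl. Nearest to Zim1 were Slc2a3, a glucose transporter (0.07), Mertk, a receptor tyrosine kinase (0.07), Tram1l1 (0.07), Col6a2, a chain of collagen VI (0.08), and Pfn2, which encodes an actin-binding profilin (0.08). With 4 arrays in 2 groups, such a likeness says only that a gene fell by the same amount with a like spread.

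Markers of the cells were read on the same arrays. All 9 measured mesenchymal, pericyte and mesoangioblast markers and all 6 myogenic markers were above the 95th percentile of the receptors on all 4 arrays. Of 5 endothelial markers 0 were, with Pecam1, Tek, Kdr and Emcn below it on all 4 and Cdh5 above it on 3. Of 5 leukocyte markers, Ptprc, Adgre1 and Itgam were below it on all 4 arrays and Cd68 and Cd3e above it. The epithelial marker Krt8 was above it and Epcam below it on all 4, and Cdh1 was above it on 1. Of 3 neural markers Tubb3 and Rbfox3 were above it. The fall of Peg3 went together with lower values of several markers. The mean log2 level of the 6 myogenic markers was 7.76 and 7.74 in shPW1, against 8.21 and 8.21 in shCtrl. Myod1, Des and Cdh15 were called lower (3 of 6, against 4.17% of all probe sets). Pax7 (log2 change -0.03), Pax3 (-0.01) and Myf5 (0.15) were not called, so the lower mean came from the 3 called genes. The mean of the 9 mesenchymal, pericyte and mesoangioblast markers was 8.47 and 8.47 in shPW1, against 8.69 and 8.73 in shCtrl. Anpep, Cspg4, Pdgfrb and Pdgfra were called lower and Cd44 higher (55.6% of 9, against 9.1% of all probe sets called in either direction). Acta2 (log2 change 0.16), Alpl (-0.09), Eng (-0.04) and Itgb1 (-0.02) were not called. The neural marker Tubb3 was also called lower. The part of these shifts in the changes of Peg3 and Zim1 was not tested.

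The sizes of the changes held better than the calls. With 1 array left out, the log2 change of Peg3 lay between -2.47 and -2.21 and that of Zim1 between -0.89 and -0.72, but with any one of the 4 arrays left out limma called 0 of all probe sets, with 3790 to 5379 at an unadjusted p under 0.05, and the adjusted p of Peg3 was 0.0795 to 0.112. An exact permutation test of 2 against 2 arrays cannot give a two-sided p under 0.333.

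**Figure D5:**
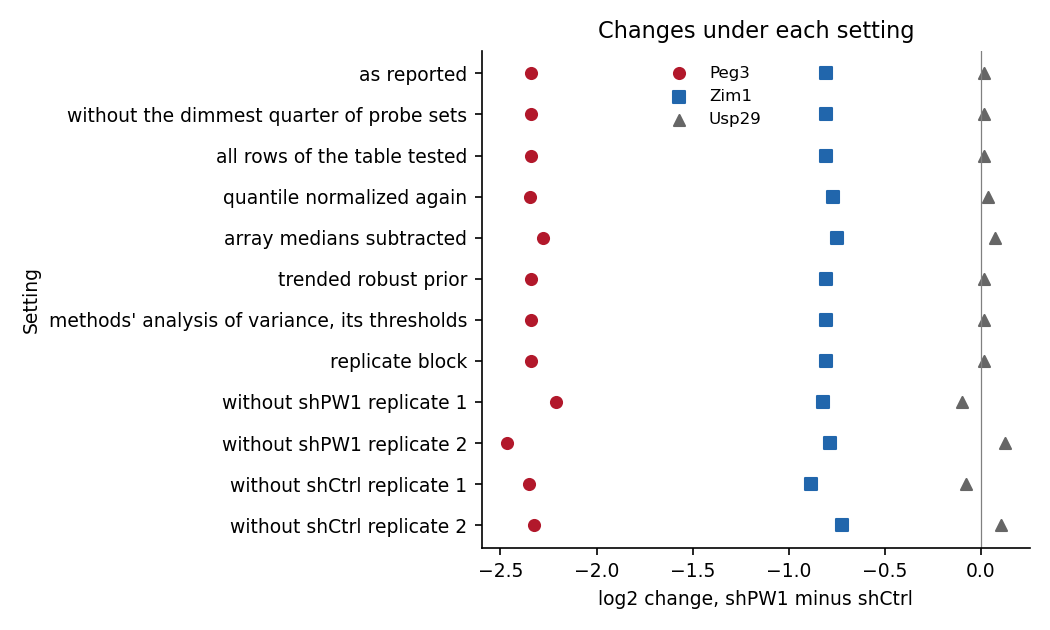
Log2 change of shPW1 over shCtrl (horizontal axis) of Peg3 (red circles), Zim1 (blue squares) and Usp29 (grey triangles) as reported and under each alternative setting or with 1 array left out (vertical axis). Peg3 lies between -2.47 and -2.21, Zim1 between -0.89 and -0.72, and Usp29 lies on either side of 0, between -0.10 and 0.12.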

How the data were processed

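Total RNA of proliferating AdmMABs was hybridized to Affymetrix Mouse Gene 1.0 ST arrays, and the authors deposited log2 expression values made by RMA in Partek (version 6.4 in the submitters' processing notes; the published methods name another release), which corrects background, normalizes between arrays and summarizes probes. The build behind the array's annotation is not given in the sources used here. Of 35556 rows, the 21789 annotated with a single symbol were tested (1621 had several and 12146 none); 21698 were matched to RefSeq by gene ID. The comparison of shPW1 with shCtrl used limma 3.58.1 (lmFit, then eBayes) under R 4.3.3 (2 residual and 2.72 prior degrees of freedom), with two-sided p-values adjusted by Benjamini-Hochberg over all probe sets tested and calls at an adjusted p under 0.05. Differences between the changes of 2 genes were fitted on within-array differences. There limma pooled the error over all rows, so its standard errors, intervals and p-values do not rest on the spread of single genes. Rows of that fit share 1 gene's spread, so its p-values far under the threshold were not given, and the errors of the 2 genes alone, added after seeing the data, stand beside it. For 2 unchanged probe sets simulated, p was under 0.001 in 0.199% of cases by that fit and in 0.124% by the errors of the 2 genes. It was under 0.05 in 3.83% by that fit and in 5.9% by the errors of the 2 genes. Simulated rows were drawn independently, so these shares cannot check the independence that the errors of the 2 genes assume. In simulated arrays of 21789 probe sets, the test recovered 8% of 50 changed by a log2 of 0.5 and 84% of 50 changed by 1. With only 50 changed for each size, far fewer changed than the 1983 called in the data. Adjustment was therefore stricter there, and these shares do not give the power of the comparison here. The number of arrays limits the precision.

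Members and gene lists were chosen with earlier results of these data known. The rule for naming took all members, all measured genes of the domain and of the PW1 partners, called members of the other lists (at most 4 in each direction), Usp37 and Usp26, and the 5 genes most like Peg3 and Zim1. The neighbours, the genes of imprint maintenance and the markers given by name were added beyond that rule after their values were seen. A gene with several probe sets counted by its brightest. The alternatives were: dim probe sets dropped, rows without a single symbol kept, quantile normalization repeated, array medians subtracted, the prior made trended and robust, the methods' analysis of variance in place of limma (at the methods' own unadjusted threshold with a minimum fold of 1.2, and with adjusted p instead), a block for replicate number, or 1 array omitted. The median log2 value per array was 5.44 and 5.40 in shPW1 and 5.47 and 5.49 in shCtrl.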

Additional observations from a re-analysis of the deposited data

How the results depend on the processing

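Peg3 and Zim1 were lower in shPW1 under every alternative run, and Usp29 was not called under any. The call of Zim1 was lost when all rows were tested (log2 change -0.80, adjusted p = 0.07 from limma), and both calls were lost after adjustment of the methods' analysis of variance (Peg3 -2.34, adjusted p = 0.105; Zim1 -0.80, adjusted p = 0.136), as was that of Zim1 against Usp29 (-0.82, adjusted p = 0.999). With 1 array left out no call of Peg3 (-2.47 to -2.21) or Zim1 (-0.89 to -0.72) remained by limma, and the log2 change of Usp29 ran from -0.10 to 0.12, below 0 without shPW1 replicate 1 (-0.10) and without shCtrl replicate 1 (-0.08). In these fits the group left with 1 array is assumed to vary like the other.

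The 1075 higher and 908 lower probe sets became 1735 and 1521 without the dimmest 25% of probe sets, 36 and 50 with all rows tested, 2735 and 1978 with a trended robust prior, and 1 and 1 by the adjusted analysis of variance, where 4650 had an unadjusted p under 0.05. With array medians subtracted there were 1627 higher and 759 lower. With any array left out limma called 0 and 0. The cause of these shifts was not tested. With the replicate number as a block, 256 were higher and 258 lower, and the calls of Peg3 (adjusted p = 0.0134) and Zim1 (adjusted p = 0.0392) were kept, as were those of Usp11 and Usp31, while those of Siah1b (adjusted p = 0.0826), Zkscan6 (adjusted p = 0.0995), Usp16, Usp36, Usp43, Usp5 and the markers Pdgfrb, Pdgfra, Cd44, Des and Tubb3 were not. Same-numbered arrays deviated from their group means with a correlation of -0.11 over the probe sets. This value cannot show whether same-numbered or crossed arrays were processed together. With the numbers crossed, 213 were higher and 224 lower. The mean over several probe sets of a gene gave no value, because each of the 3 genes has 1. With array medians subtracted, Usp5 (adjusted p = 0.0884) and the marker Pdgfra (adjusted p = 0.0552) were not called. Signals within the receptor range, as for Usp29 and for Zim1 in shPW1, limit what the arrays can show.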
